A study of Mus musculus with 6 samples.

Results

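The 10 genes described here are best known from natural killer (NK) cells: Klrc1, Klrc2, Klrd1, Klrk1, Klrb1c, Klrg1, Nkg7, Ncr1, Cd226 and Slamf7. Apart from Nkg7, whose product is a granule membrane protein, they encode receptors, and all 10 are called NK receptor genes for short. They were chosen by name, as the rows whose Ensembl mouse identifier belongs to one of these symbols, and all 10 were found among the 52550 genes of the count table. RNA was sequenced from wild-type mouse splenic CD3+ T cells, isolated magnetically and activated for 24 h with antibodies to CD3 and CD28, which engage the T cell receptor (TCR). In 3 samples the cells received the activator alone (TCR alone), and in 3 samples DMGV (dimethylguanidino valeric acid) was added at 100 ng/ml (TCR+DMGV). The sample labels name the compound DMGV, whereas the study's text for this experiment names LNY1, a factor from conditioned medium of fibroblasts that it equates with dimethylarginines. The groups carry the labels' name, and which compound was added was not settled here. The study describes the samples as independent, and its methods name C57BL mice, without tying a strain to these samples. The design has no resting T cells, so neither group shows what TCR engagement itself did to these genes.

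NK receptors divide into inhibitory and activating forms. CD94 (Klrd1) pairs with NKG2A (Klrc1) into an inhibitory receptor, or with NKG2C (Klrc2) into an activating one, and both bind the nonclassical MHC molecule Qa-1 (H2-T23). NKG2D (Klrk1) binds stress-induced ligands and signals through the adaptors DAP10 (Hcst) and DAP12 (Tyrobp), NKp46 (Ncr1) is an activating receptor of NK cells, the NKR-P1C receptor (Klrb1c) carries the NK1.1 epitope, and KLRG1 is an inhibitory receptor that binds cadherins. DNAM-1 (Cd226) is a costimulatory receptor for the poliovirus receptor and nectin-2, SLAMF7 binds itself on neighbouring cells, and Nkg7 encodes a membrane protein of cytotoxic granules. Activated and memory CD8 T cells are known to express several of them.

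Of the 10 genes, 6 were clearly expressed and 4 lay near the detection limit, and none of the 9 that could be tested differed between TCR alone and TCR+DMGV beyond the spread of the samples. The clearly expressed genes were Nkg7, Cd226, Slamf7, Klrd1, Klrc1 and Klrk1, with 236 to 4410 counts in each sample. The other 4, Ncr1, Klrb1c, Klrg1 and Klrc2, had between 0 and 52 counts. The counts of all genes summed to 37758725 to 43718867 per sample. A count of 0 allows a level of up to 3 counts, for counting error only. In these samples that was 0.0686 to 0.0795 CPM (counts scaled to a common sequencing depth), here scaled by the total count alone. TCR alone replicate 3 and TCR+DMGV replicate 1 stood apart from the other 4 samples on the first principal component and in genes of low GC content, and the members' values are given with and without them.

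Where members of a receptor family part in sequence decides how they signal, and it also bears on how reads are assigned to them. The stretches below were read from the GENCODE M21 transcripts (GRCm38), with positions counted from the first coding base. The first 60 coding bases show that Klrc1 begins with codons for an immunoreceptor tyrosine-based inhibitory motif (ITIM, in capitals), which the same stretch of Klrc2 lacks.
Klrc1: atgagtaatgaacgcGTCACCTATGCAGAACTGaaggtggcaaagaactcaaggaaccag
Klrc2: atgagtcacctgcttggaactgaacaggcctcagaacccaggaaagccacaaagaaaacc
Further on, the 2 genes are alike. Over 714 aligned coding bases they were identical at 593 (83.05%), and the longest identical run (capitals) closed the coding sequence of Klrc1, from base 633 to 732.
Klrc1 and Klrc2: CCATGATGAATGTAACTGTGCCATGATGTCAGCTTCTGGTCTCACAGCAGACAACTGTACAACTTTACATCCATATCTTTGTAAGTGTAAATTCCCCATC
How reads that fall in such a run were divided between Klrc1 and Klrc2 was not given in the sources used here, so the low counts of Klrc2 are uncertain. For Klrk1, the longer coding sequence adds 39 bases (capitals) before the start codon of the shorter one. The long NKG2D protein is known to pair with DAP10, and the short one with DAP10 or DAP12.
Klrk1 long form: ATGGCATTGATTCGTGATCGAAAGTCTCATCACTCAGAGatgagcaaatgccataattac
Klrk1 short form: atgagcaaatgccataattac

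The members fell into an ordered series when their levels were compared per length, as FPKM (fragments scaled to length and to sequencing depth, the authors' values). Nkg7 was highest at 94.46 FPKM (mean of 6 samples), above 97.8% of the 22526 genes with a count. Cd226 followed at 20.7, Slamf7 at 15.5, Klrd1 at 8.08, Klrc1 at 5.60 and Klrk1 at 1.72 FPKM. Ncr1 (0.20 FPKM), Klrb1c (0.18), Klrg1 (0.0998) and Klrc2 (0.0599) came last. Between neighbours, the 6-sample ranges were apart from Nkg7 to Cd226, from Slamf7 to Klrd1, from Klrc1 to Klrk1 and from Klrk1 to Ncr1, with ratios of mean FPKM of 4.56, 1.92, 3.25 and 8.55. Cd226 and Slamf7 overlapped (Cd226 higher in 5 of 6 samples), as did Klrd1 and Klrc1 (Klrd1 higher in 4 of 6), and the last 4 genes could not be ordered. The gene of the inhibitory chain NKG2A was at 5.60 FPKM where that of the activating chain NKG2C was at 0.0599.

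**Figure D1:**
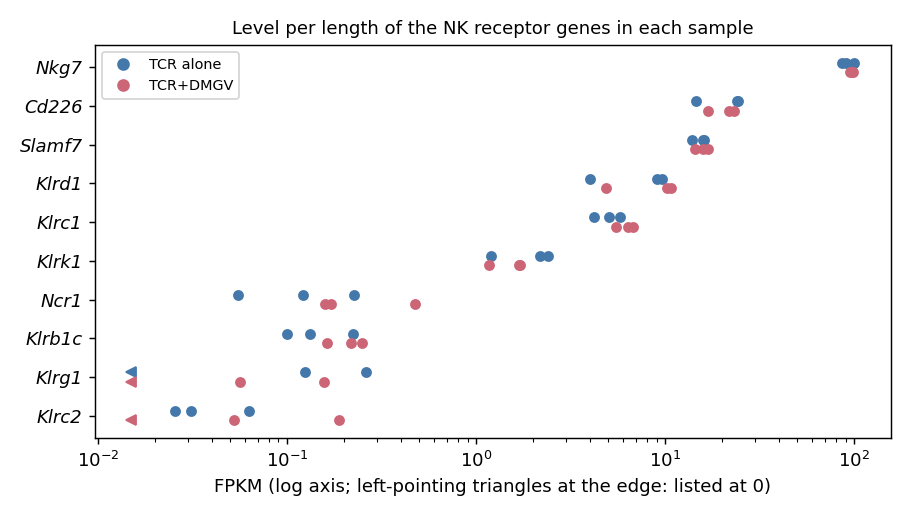
FPKM of each NK receptor gene in each of the 6 samples (log axis; blue, TCR alone; red, TCR+DMGV; triangles at the left edge mark samples listed at 0). Nkg7 lies alone at the top, and Ncr1, Klrb1c, Klrg1 and Klrc2 lie below 0.5 FPKM in every sample.

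The labelled cell type was checked against marker genes. The T cell markers summed to 4957 to 5599 CPM, led by Lck (599.7 CPM) and Cd6 (562.9 CPM), and the CD8 markers Cd8a and Cd8b1 to 506.8 to 616.2 CPM. Of 17 NK cell markers, 12 had a mean under 1 CPM. The list summed to 546 to 609.7 CPM in TCR alone and 541.8 to 588.3 CPM in TCR+DMGV, nearly all of it Il2rb (489.6 CPM) and Eomes (61.8 CPM), which activated T cells also express. The other transcripts of this list were low but not absent. Of the 17 markers, 10 were counted in every sample, among them Gzma (185 to 292 counts), Ccl5 (155 to 235), Klri2 (42 to 98), Klrb1f (16 to 53) and Klre1 (5 to 47). Whether these transcripts came from NK cells or from T cells was not tested. The Ly49 receptor genes Klra8 and Klra4 and the receptor gene Klrb1a had at most 13 counts in a sample and were at 0 in at least 4 of the 6. The other Ly49 genes of the list were counted more often. Klra7 had counts of 18, 50 and 0 with TCR alone and of 4, 13 and 8 with TCR+DMGV. Klra9 had 11, 0 and 10 with TCR alone and 0, 13 and 8 with TCR+DMGV. NKT cell markers summed to 1.64 to 2.70 CPM, and those of gamma-delta T cells to 22.6 to 28.7 CPM, mostly Trdc (20.2 CPM). B cell markers summed to 249 to 275 CPM (Ighm 243.0 CPM), macrophage and monocyte markers to 30.8 to 56.2 CPM, dendritic cell markers to 71.5 to 98.7 CPM (Bst2 72.6 CPM) and erythroid and platelet markers to 2.94 to 5.98 CPM, and all 10 neutrophil markers were at 0. The summed markers of the groups overlapped for each of these lists. The CD4 list did not overlap, with 267 to 278 CPM in TCR alone and 294 to 308 CPM in TCR+DMGV (exact permutation test, p = 0.1, two-sided, the smallest 3 against 3 can give). The part of such differences in the members' values was not tested. In bulk RNA, fewer cells of a type and less RNA per cell cannot be told apart.

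All genes were compared between the groups with edgeR's quasi-likelihood test, and 2 of 14786 tested genes (0.0135%) passed an adjusted p of 0.05. Of the 10 members, 9 entered this test, Klrg1 having too few counts, and 0 passed (adjusted p = 0.9995 for each of the 9, edgeR, Benjamini-Hochberg over all genes). An unadjusted p under 0.05 was met by 471 of all tested genes (3.19%) and by 0 members, and DESeq2 called 14 of 19448 genes (0.072%) and 0 of the 10 members. In CPM the groups overlapped for all 10 members, where 8.86% of all tested genes did not overlap (4.92% higher and 3.94% lower in TCR+DMGV). The log2 fold changes (TCR+DMGV over TCR alone) were above 0 for 7 members and below 0 for 2, with a median of 0.20, beside 7483 above and 7303 below 0 and a median of 0.0024 over all tested genes.

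**Figure D2:**
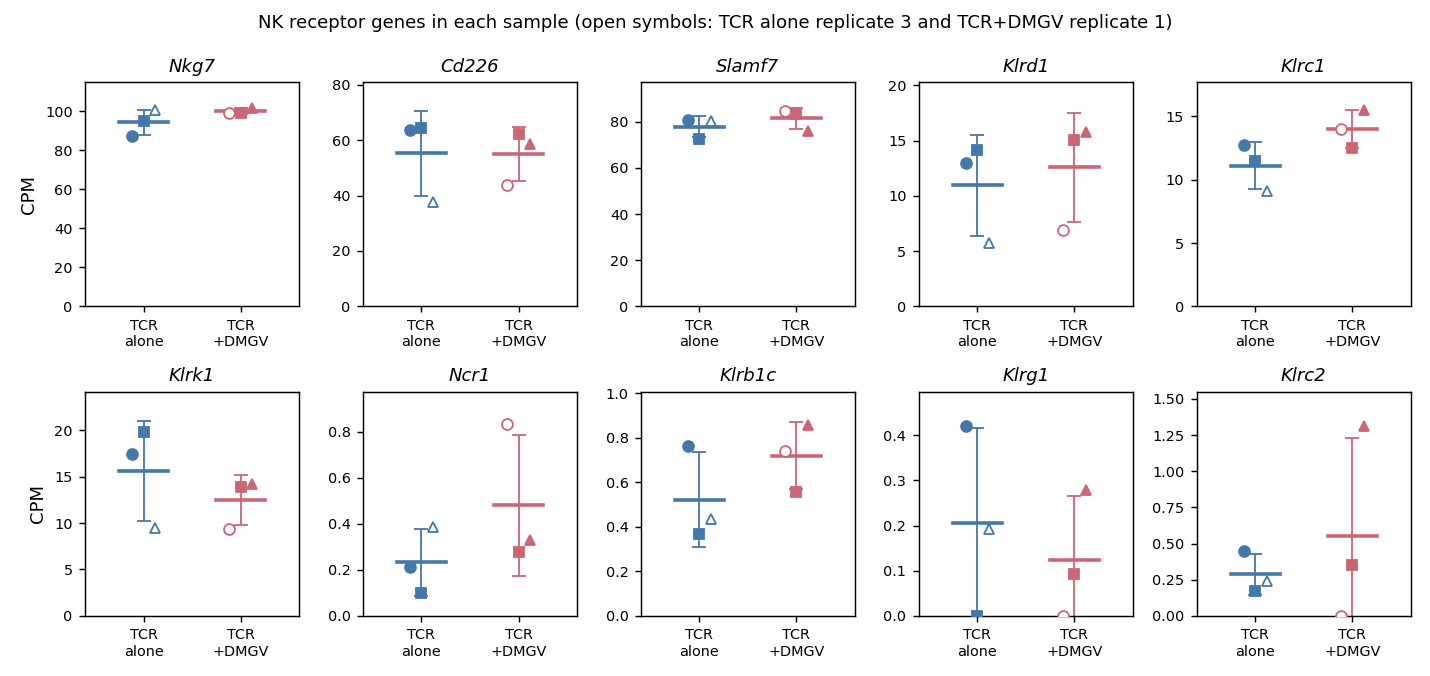
CPM of each NK receptor gene by sample (circle, square and triangle for replicates 1, 2 and 3; horizontal line, group mean; error bar, SD, n = 3; axes start at 0). The groups overlap in all 10 panels, and the open symbols, TCR alone replicate 3 and TCR+DMGV replicate 1, are the lowest points for Cd226, Klrd1 and Klrk1.

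Nkg7 (ENSMUSG00000004612.9, chr7:43437073-43438249, GRCm38, forward strand) gave the narrowest estimate. In TCR alone it had 87.5, 94.8 and 100.4 CPM in replicates 1, 2 and 3, and in TCR+DMGV 99.1, 99.2 and 101.8 CPM. The highest TCR alone sample lay within the TCR+DMGV range. Its log2 fold change was 0.086 (SE 0.079, 95% interval -0.10 to 0.27), that is between 0.93 and 1.21-fold. Set against Cd3e, a subunit of the T cell receptor complex, the ratio of FPKM was 1.44 to 1.48 in TCR alone and 1.45 to 1.52 in TCR+DMGV.

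Slamf7 (ENSMUSG00000038179.13, chr1:171632403-171653035, reverse strand) was as even. TCR alone samples had 80.8, 72.4 and 80.4 CPM and TCR+DMGV samples 84.7, 83.3 and 76.1 CPM. The log2 fold change was 0.064 (SE 0.086, 95% interval -0.14 to 0.27). Its locus overlaps Gm37787 on the other strand, with 95 to 135 counts, and Mir7683, with at most 1 count per sample. The counting was not stated to use strand, so reads of the overlap cannot be told apart.

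Klrc1 (ENSMUSG00000030167.15, chr6:129666015-129678973, reverse strand), which encodes the inhibitory NKG2A, came nearest to a difference. It had 12.7, 11.5 and 9.13 CPM in TCR alone and 14.0, 12.5 and 15.5 CPM in TCR+DMGV. The groups overlapped through 1 sample each, TCR alone replicate 1 lying just above TCR+DMGV replicate 2. The log2 fold change was 0.33 (SE 0.16, 95% interval -0.046 to 0.71, unadjusted p = 0.077 from edgeR), an interval from 0.97 to 1.63-fold. Without TCR alone replicate 1 it was 0.42 (unadjusted p = 0.044 and adjusted p = 1 from edgeR), and without TCR alone replicate 3 it was 0.21.

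Its partner Klrd1 (CD94, ENSMUSG00000030165.16, chr6:129591782-129598775, forward strand) varied more within the groups than between them. TCR alone samples had 12.9, 14.2 and 5.70 CPM, and TCR+DMGV samples 6.90, 15.1 and 15.8 CPM. One sample of each group, TCR alone replicate 3 and TCR+DMGV replicate 1, was well below the other 4. The log2 fold change was 0.20 (SE 0.41, 95% interval -0.77 to 1.17), and without TCR alone replicate 3 it turned to -0.10. The ratio of Klrc1 to Klrd1 in FPKM was 0.52 to 1.04 in TCR alone and 0.53 to 1.31 in TCR+DMGV, with the highest value of each group in those same samples.

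Klrk1 (NKG2D, ENSMUSG00000030149.15, chr6:129610323-129623864, reverse strand) had 17.4, 19.8 and 9.52 CPM in TCR alone and 9.32, 13.8 and 14.2 CPM in TCR+DMGV. The same 2 samples were again the lowest. Its log2 fold change was -0.33 (SE 0.29, 95% interval -1.01 to 0.36). Without TCR alone replicate 3 it was -0.58 (unadjusted p = 0.026, adjusted p = 0.65 from edgeR), and without TCR alone replicate 2 it was -0.12. The ratio of Klrk1 to Klrd1 in FPKM was 0.24, 0.25 and 0.30 in TCR alone and 0.24, 0.16 and 0.16 in TCR+DMGV. The groups did not overlap in this ratio, by a margin between 0.2406 and 0.2405 (exact permutation test, p = 0.1, two-sided, the smallest the design allows). It was 1 of 7 ratios computed, which were chosen after the values were seen, and the other 6 overlapped (exact p from 0.3 to 0.7).

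Cd226 (DNAM-1, ENSMUSG00000034028.15), on chromosome 18, showed the same form. TCR alone samples had 63.7, 64.4 and 37.6 CPM, and TCR+DMGV samples 43.8, 62.3 and 58.6 CPM. The log2 fold change was -0.0090 (SE 0.23, 95% interval -0.55 to 0.53). Its sign changed on leaving out replicate 1 (0.090) or replicate 2 (0.11) of TCR alone, and likewise replicate 1 of TCR+DMGV (0.13). The ratio of Cd226 to Tigit, an inhibitory receptor for the same ligands, was 0.24 to 0.37 in TCR alone and 0.27 to 0.32 in TCR+DMGV.

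**Figure D3:**
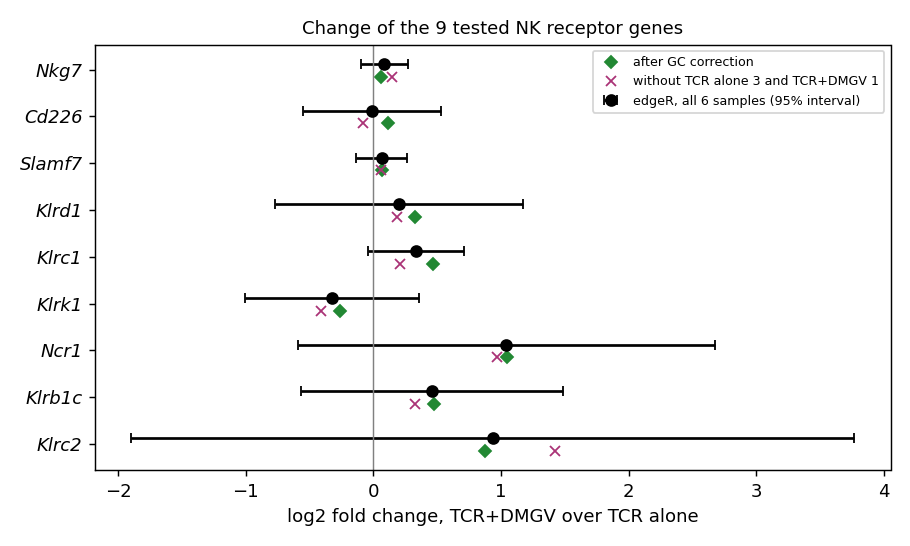
Log2 fold change of the 9 tested NK receptor genes, TCR+DMGV over TCR alone (black points, edgeR on 6 samples with 95% intervals; green diamonds, after GC correction; purple crosses, without TCR alone replicate 3 and TCR+DMGV replicate 1). Every 95% interval holds 0, and the narrowest are those of Nkg7 and Slamf7.

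Among the 4 genes near the detection limit, Ncr1 (NKp46, ENSMUSG00000062524.4, chr7:4337724-4345164, forward strand) had counts of 8, 4 and 16 with TCR alone and of 37, 12 and 13 with TCR+DMGV. Its log2 fold change of 1.04 (SE 0.70, 95% interval -0.59 to 2.68) fell to 0.38 without TCR+DMGV replicate 1. Klrb1c (NK1.1, ENSMUSG00000030325.16, chr6:128778485-128789215, reverse strand) had counts of 29, 15 and 18 with TCR alone and of 33, 24 and 34 with TCR+DMGV, a log2 fold change of 0.46 (SE 0.44, 95% interval -0.57 to 1.49) that ran from 0.26 without TCR alone replicate 2 to 0.82 without TCR alone replicate 1. Its locus overlaps Gm44511 on the same strand, which had 0 counts. These values show RNA of both receptors in every sample at under 1 CPM.

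Klrc2 (NKG2C, ENSMUSG00000052736.15, chr6:129647496-129660689, reverse strand) had counts of 17, 7 and 10 with TCR alone and of 0, 15 and 52 with TCR+DMGV. The TCR+DMGV samples held both the lowest and the highest value. The log2 fold change of 0.94 (SE 1.2, 95% interval -1.90 to 3.77) turned to -0.72 without TCR+DMGV replicate 3. Klrg1 (ENSMUSG00000030114.8, chr6:122270596-122282882, reverse strand) had counts of 16, 0 and 8 with TCR alone and of 0, 4 and 11 with TCR+DMGV, or 0.20 ± 0.21 and 0.12 ± 0.14 CPM (SD, n = 3 each; exact permutation test, p = 0.7, two-sided). Both genes were too low and too uneven between samples for a change to be called, and without the 2 samples that stood apart the mean of Klrg1 differed by -0.025 CPM (TCR+DMGV minus TCR alone).

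The pattern of Klrd1, Klrk1 and Cd226 was found in many genes of low GC content. TCR alone replicate 3 and TCR+DMGV replicate 1 had scores of 42.1 and 42.9 on the first principal component (32.2% of the variance), and the other 4 samples had scores from -34.9 to -10.5. In the fifth of genes with the lowest GC content, the median deviation from the 6-sample mean was -0.28 and -0.20 (log2) in these 2 samples and 0.063 to 0.20 in the others. The transcripts of Klrd1 (36.2% GC), Cd226 (38.8%) and Klrk1 (42.9%) were of low GC content, whereas those of Nkg7 held 53.2%. Between the 2 samples and the other 4, the difference of mean log2 CPM was -1.198 for Klrd1, -0.77 for Klrk1 and -0.62 for Cd226, beside 0.060 for Nkg7, 0.080 for Slamf7 and a median of 0.013 over all tested genes. Both samples lay below the other 4 for these 3 of 9 tested members, as for 17.2% of all tested genes. Klrc1, at 38.5% GC, differed by -0.20, and Ncr1 lay above the other 4 in both samples. Klrc2 (38.1% GC, 0 to 52 counts) differed most, by -2.054, although its 2 samples did not both lie below the others. In the lowest of 10 equal GC bins the quartiles of all tested genes were -1.06 and -0.29. Klrd1 and Klrc2 lay below them, Cd226 between them and Klrc1 above them. In the next bin (42.12% to 44.54% GC) the quartiles were -0.49 and -0.049. Klrk1 lay below them, and Ncr1 (44.25% GC, 4 to 37 counts) lay above them at 1.242.

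**Figure D4:**
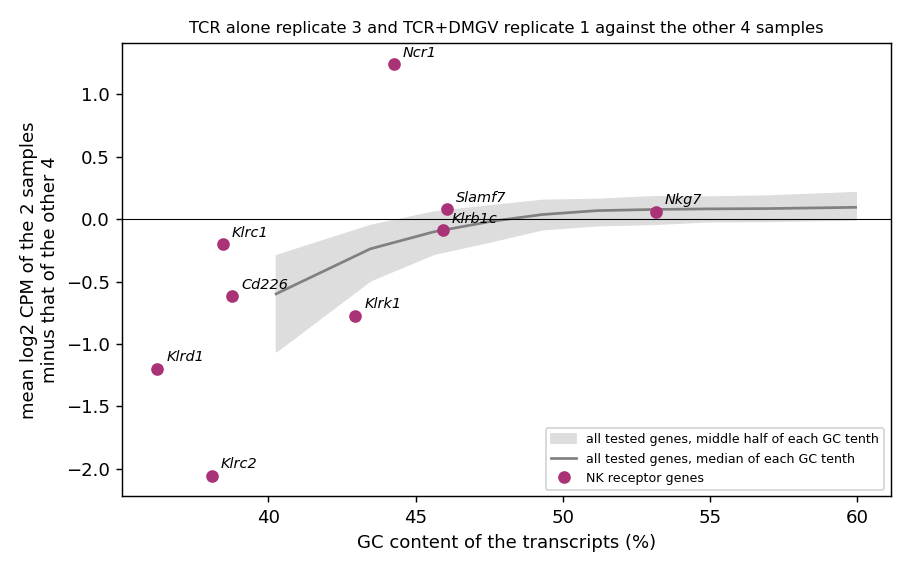
Difference in mean log2 CPM between TCR alone replicate 3 and TCR+DMGV replicate 1 and the other 4 samples, against the GC content of each gene's transcripts (points, 9 NK receptor genes; grey line and band, median and quartiles of all tested genes in 10 equal bins of GC content). The grey line runs from -0.60 in the lowest bin to 0.094 in the highest, and Klrd1, Cd226 and Klrk1 lie between -1.198 and -0.62.

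With a smooth GC trend removed from each sample, a correction added after the data were seen, the standard error fell for Cd226 (from 0.23 to 0.093), Klrd1 (0.41 to 0.15) and Klrk1 (0.29 to 0.19). It also fell for Nkg7 (from 0.079 to 0.064) and Klrc2 (1.205 to 1.105). It rose for Klrc1 (from 0.16 to 0.24), Slamf7 (0.086 to 0.098), Ncr1 (0.70 to 0.75) and Klrb1c (0.4369 to 0.4425). The corrected log2 fold changes were 0.12 for Cd226, 0.33 for Klrd1 (unadjusted p = 0.065), -0.26 for Klrk1 and 0.46 for Klrc1, and no member passed the threshold (adjusted p = 0.998 for each, edgeR). Within the 2 samples that stood apart, 1 of each group, TCR alone and TCR+DMGV had 5.70 and 6.90 CPM for Klrd1, 9.52 and 9.32 CPM for Klrk1 and 37.6 and 43.8 CPM for Cd226, without a replicate. Among the other 4 samples the group means were 13.6 and 15.4 CPM for Klrd1, 18.6 and 14.0 CPM for Klrk1 and 64.1 and 60.5 CPM for Cd226. Cd226 thus differed in opposite directions in the 2 sets, as did Nkg7 (100.4 and 99.1 CPM, against means of 91.2 and 100.5 CPM). Without these 2 samples, the log2 fold change of Klrk1 was -0.41 (unadjusted p = 0.025, adjusted p = 0.73 from edgeR) and that of Klrd1 was 0.19 (adjusted p = 0.82). In the same fit it was 0.14 for Nkg7, -0.081 for Cd226, 0.060 for Slamf7, 0.21 for Klrc1, 0.97 for Ncr1, 0.33 for Klrb1c and 1.42 for Klrc2. An unadjusted p under 0.05 from edgeR was met in this fit by 972 of all 14888 genes tested.

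Across the 6 samples, log2 CPM of Klrd1 and Cd226 had a Pearson correlation of 0.96, Klrk1 and Cd226 of 0.91 and Klrk1 and Klrd1 of 0.83, whereas Ncr1 and Klrk1 had -0.91. These points share the libraries and their GC trend, and they describe 6 samples only. Klrb1c, Klrd1, Klrk1, Klrc2 and Klrc1 lie within 0.90 Mb of chromosome 6, but Cd226 lies on another chromosome. The tested gene most like each member over the samples was Zfp655 for Cd226 (r = 0.999), Bmpr1a for Klrd1 (0.997) and Shcbp1 for Klrk1 (0.998). It was Kyat1 for Klrc1 (0.985), Fem1a for Slamf7 (0.988) and Gm43668, itself at only 0 to 0.40 CPM, for Nkg7 (0.998). For the low genes it was Cish for Ncr1 (0.992), Gm47766 for Klrb1c (0.996) and Rffl for Klrc2 (0.990). Such likeness was common: 573 of 14777 genes had a correlation of at least 0.95 with Cd226, 300 with Klrk1 and 249 with Klrd1, but 34 with Slamf7 and 18 with Klrc1.

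The deposited table of transcripts listed 39 transcripts of the 10 genes, of which 36 had counts and 23 were tested. By edgeR, 0 passed the threshold, as did 0 of all 38401 transcripts tested (0%), and an unadjusted p under 0.05 was met by 0 and 1235 of them (3.22%). DESeq2 took in all transcripts with a count and called 400 of 70124, and 0 of the 36 of the members. The groups did not overlap for 4 of the 23 (3 higher, 1 lower), beside 9.29% of all transcripts. They were a form of Klrc1, a retained-intron form of Nkg7 with 10 to 29 counts, and 2 forms of Slamf7. A transcript's count rests on how StringTie divided reads between overlapping forms, which was not tested.

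Klrc1 has 4 annotated transcripts. The longest transcript (ENSMUST00000032270) held counts of 174, 351 and 337 with TCR alone and of 504, 434 and 506 with TCR+DMGV. Its log2 fold change was 0.68 (SE 0.31, unadjusted p = 0.075 from edgeR). All TCR+DMGV samples lay above all TCR alone samples. The lowest, TCR alone replicate 1, stood apart in its use of transcripts. In that sample a shorter transcript with a coding sequence of the same length (ENSMUST00000032271) took 241 counts, 49.9% of the gene, against 1 count in each of the other 5 samples. The longest transcript therefore held 36.02% of the gene there and 74.8% to 89.2% elsewhere. Its lack of overlap between the groups thus depends on how that sample's counts were divided between transcripts with coding sequences of the same length. Another form (ENSMUST00000169545), which held 10.6% to 17.9% in every sample, skips the 102 coding bases in capitals.
Klrc1: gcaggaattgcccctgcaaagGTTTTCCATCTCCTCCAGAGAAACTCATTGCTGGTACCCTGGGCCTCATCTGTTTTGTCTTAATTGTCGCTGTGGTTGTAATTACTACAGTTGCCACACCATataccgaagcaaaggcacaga

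Klrk1 was divided between a short form (ENSMUST00000095412), with 30.9% to 69.2% of its counts, and a form with an 18-base insert in frame (ENSMUST00000168919), with 25.3% to 52.7%. The inserted bases are in capitals.
Klrk1 with insert: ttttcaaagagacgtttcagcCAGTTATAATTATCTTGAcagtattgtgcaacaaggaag
Klrk1 without insert: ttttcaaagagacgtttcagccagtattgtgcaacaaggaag
Both extremes of these shares lay in TCR+DMGV replicates 1 and 2, and the groups overlapped (exact permutation test, p = 0.9 for each share, two-sided). The long form of NKG2D (ENSMUST00000032252) held 3.18%, 4.69% and 4.06% in TCR alone and 4.34%, 11.6% and 3.39% in TCR+DMGV, a minority in each sample. Its adaptors are given with the other signalling genes below. Retained-intron transcripts of Klrk1 had counts of 64, 57 and 6 with TCR alone and of 5, 29 and 21 with TCR+DMGV, lowest in the 2 samples that stood apart.

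**Figure D5:**
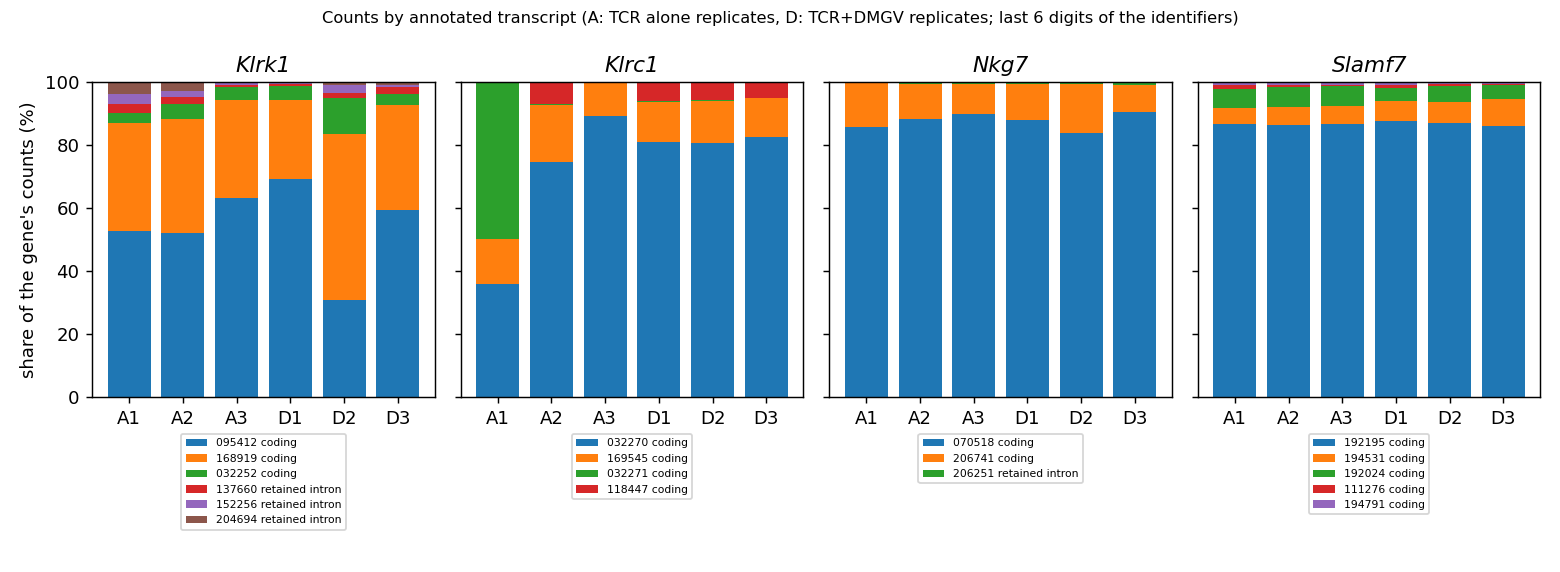
Share of each gene's counts by annotated transcript (%) in TCR alone replicates (A1 to A3) and TCR+DMGV replicates (D1 to D3) for Klrk1, Klrc1, Nkg7 and Slamf7. The short transcript of Klrc1 (green) fills 49.9% of A1 and under 0.3% of every other bar, whereas the main form of Slamf7 stays between 86.2% and 87.7%.

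Slamf7 had the steadiest use of transcripts, its main form (ENSMUST00000192195) holding 86.2% to 87.7%. That form carries codons for an immunoreceptor tyrosine-based switch motif, to which SLAM adaptors bind. They are shown in capitals within coding bases 880 to 933.
Slamf7: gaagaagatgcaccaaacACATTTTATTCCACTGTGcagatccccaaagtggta
A form without this motif (ENSMUST00000192024), whose coding sequence parts from the main one after 763 bases, had counts of 192, 190 and 205 with TCR alone and of 157, 189 and 132 with TCR+DMGV. Its share of the gene was 6.16% to 6.43% and 4.17% to 5.27%, with no overlap, and its log2 fold change was -0.38 (SE 0.25, unadjusted p = 0.18 from edgeR). A form with the motif (ENSMUST00000194531) had counts of 147, 166 and 194 with TCR alone and of 238, 237 and 256 with TCR+DMGV (log2 fold change 0.45, SE 0.24, unadjusted p = 0.11 from edgeR), a share of 4.79% to 5.83% and 6.32% to 8.49%. Neither passed the threshold (adjusted p = 1 for both, edgeR).

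For the remaining genes, Nkg7 used its main form (ENSMUST00000070518) for 84.0% to 90.5% of counts and a form lacking 135 coding bases (ENSMUST00000206741) for 8.75% to 15.5%. Klrd1 used 1 coding form (ENSMUST00000112063) for 82.3% to 92.2%, and an annotated nonsense-mediated decay form (ENSMUST00000159804) for 6.52% to 12.3%. Cd226 used its longer form (ENSMUST00000037142) for 94.99% to 98.3%. Of the 37 counts of Ncr1 in TCR+DMGV replicate 1, 33 lay on a form (ENSMUST00000006792) that had 0 counts in the other 5 samples. On the other form (ENSMUST00000126417) the log2 fold change of Ncr1 was -0.0064 (SE 0.74). The gene as a whole still had a log2 fold change of 0.38 without TCR+DMGV replicate 1. How reads were divided between its forms was not tested. Klrb1c was split irregularly, its form ENSMUST00000167691 holding 26, 3 and 18 counts in TCR alone replicates and 7, 0 and 34 in TCR+DMGV replicates, and ENSMUST00000174404 the remainder. Counts of Klrc2 lay mostly on ENSMUST00000145984 (16, 7 and 4 in TCR alone, 0, 0 and 29 in TCR+DMGV). Its retained-intron form ENSMUST00000149494 held 5 counts in TCR alone replicate 3 and 15 and 5 in TCR+DMGV replicates 2 and 3. TCR+DMGV replicate 3 alone had counts on ENSMUST00000112057 (6) and ENSMUST00000119533 (12), and ENSMUST00000071920 had at most 1 count. These forms and the single transcript of Klrg1 (ENSMUST00000032207) had too few counts to be tested.

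Genes of the same pathways were taken as lists, and in none of the 6 did a gene pass the threshold in either direction (0 of 84 genes tested). An unadjusted p under 0.05 from edgeR was met by 4 of the 84, beside 3.19% of all tested genes. Among other killer cell lectin-like receptors, 19 of 20 were matched, 9 tested and 5 at 0 in all samples. Of the 9, 2 had a log2 fold change above 0 and 7 below (median -0.30). Klre1, an NK cell receptor chain, had 0.13, 0.56 and 0.43 CPM in TCR alone and 0.92, 0.84 and 1.19 CPM in TCR+DMGV, without overlap (log2 fold change 1.37, SE 0.54, unadjusted p = 0.038 from edgeR). Klri2, the related receptor chain of next smallest p, had 2.14 ± 0.60 and 1.34 ± 0.48 CPM (SD, n = 3 each), and Klra3, a Ly49 receptor, had the highest FPKM of this list at 0.46.

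Among adaptors and signal transducers, 14 of 22 tested genes had a log2 fold change above 0 and 8 below (median 0.035). Hcst, which encodes the NKG2D adaptor DAP10, had 3.69, 3.14 and 4.59 CPM in TCR alone and 6.58, 4.90 and 9.16 CPM in TCR+DMGV. All TCR+DMGV samples lay above all TCR alone samples, as for 4.92% of all tested genes (log2 fold change 0.85, SE 0.27, unadjusted p = 0.015, adjusted p = 0.9995 from edgeR). Tyrobp (DAP12), named after its values were seen as the other adaptor of NKG2D, had counts of 0, 4 and 20 with TCR alone and of 8, 5 and 0 with TCR+DMGV, and missed the filter. On the FPKM scale the means of all samples were 6.53 for Hcst and 0.19 for Tyrobp. Lcp2, the scaffold SLP-76, had 597 ± 13.2 and 655 ± 15.1 CPM (SD, n = 3 each) without overlap (log2 fold change 0.13, SE 0.062), and Lck, a kinase of the T cell receptor, was highest of the list at 182.1 FPKM and had a log2 fold change of 0.025.

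Ligands of the members or of their receptor families were measured in 15 of 17 cases, with 6 tested and 6 at 0 in all samples. Of the 6 tested, 2 had a log2 fold change above 0 and 4 below (median -0.097). H2-T23, whose product Qa-1 is bound by CD94 with NKG2A or NKG2C, was highest at 66.0 FPKM (log2 fold change 0.045, SE 0.088). Ulbp1, a ligand of NKG2D, had 27.8, 26.7 and 19.2 CPM in TCR alone and 17.8, 21.7 and 18.4 CPM in TCR+DMGV (log2 fold change -0.35, SE 0.16, unadjusted p = 0.069 from edgeR). Clec2d, listed as a ligand of the NKR-P1 family and not of the Klrb1c product itself, had a log2 fold change of 0.21 (SE 0.17). In the nectin receptor and SLAM list, 5 of 9 tested genes were above 0 and 4 below (median 0.097). Cd96, which shares the poliovirus receptor with DNAM-1, had 48.2, 51.6 and 47.9 CPM in TCR alone and 54.4, 54.3 and 60.9 CPM in TCR+DMGV, without overlap (log2 fold change 0.20, SE 0.090, unadjusted p = 0.060 from edgeR). Slamf1 and Cd48, both of the SLAM family, had log2 fold changes of 0.12 (SE 0.084) and 0.097 (SE 0.087).

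Of 14 cytotoxic effector genes tested, 9 had a log2 fold change above 0 and 5 below (median 0.050). Gzmb, granzyme B, was highest at 1434 FPKM and had a log2 fold change of 0.055 (SE 0.063). Xcl1, a chemokine made by NK and CD8 T cells, had 152.4, 174.9 and 189.2 CPM in TCR alone and 211.4, 204.0 and 236.9 CPM in TCR+DMGV (log2 fold change 0.34, SE 0.10, unadjusted p = 0.014, adjusted p = 0.9995 from edgeR). Tnfsf10, the death ligand TRAIL, had 32.2 ± 2.05 and 28.6 ± 0.55 CPM (SD, n = 3 each), also without overlap (log2 fold change -0.17, SE 0.090). Of 24 transcription factors of NK and memory CD8 cells, 11 were above 0 and 13 below (median -0.018). Bach2, a repressor that restrains effector differentiation, had 222.1, 179.4 and 94.7 CPM in TCR alone and 66.9, 68.8 and 94.4 CPM in TCR+DMGV (log2 fold change -1.11, SE 0.30). It missed the threshold in edgeR (unadjusted p = 0.0075, adjusted p = 0.9995) and was the 1 list gene that DESeq2 called (adjusted p = 0.046). Ikzf2, which encodes Helios, had a log2 fold change of -0.90 (SE 0.41), and Tcf7, of the naive and memory factor TCF-1, was highest at 128.4 FPKM with a log2 fold change of 0.050. Without the 2 samples that stood apart, 0 of 85 list genes passed the threshold. An unadjusted p under 0.05 from edgeR was met there by 8 of them, beside 972 of all 14888 genes tested. In that fit the log2 fold change was -1.30 for Bach2 (unadjusted p = 2.6e-04, adjusted p = 0.16), -1.50 for Ikzf2 (adjusted p = 0.67), 1.04 for Hcst and 0.43 for Xcl1. It was 0.53 for Klra3 against 0.016 with all 6 samples, and none of the named list genes changed sign.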

How the data were processed

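RNA of 6 samples was sequenced from poly(A)-selected libraries. According to the study's methods, reads were filtered with SOAPnuke, mapped with HISAT2 and quantified with StringTie. The authors deposited raw counts for genes and for transcripts, as whole numbers, and the step from StringTie's coverage to counts is not given in the sources used here. The FPKM values the authors deposited were used for levels per length. The submitters' processing notes name HISAT2 2.0.4 and the build mm9, whereas 99.72% of gene identifiers match GENCODE M21 (GRCm38), from which symbols, coordinates, GC content and coding sequences were taken, so these coordinates may not be those used for mapping. All 37 genes of the mitochondrial genome were at 0.

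Gene counts (37758725 to 43718867 per sample) were tested with edgeR 4.0.16 in R 4.3.3 (TMM, filterByExpr, quasi-likelihood, two-sided, Benjamini-Hochberg over all tested genes, threshold 0.05), and transcript counts likewise. CPM are TMM-scaled, and log2 CPM used a prior count of 2. Intervals for fold changes come from the same fit. Replicate numbers were taken from the labels. The median chi-square per gene between samples of a group was 3.89 to 9.00, so no pair agreed within sampling noise. Alternatives were DESeq2 1.42.0, other scalings and filters, limma 3.58.1 on log2(FPKM + 1) or log2(FPKM + 0.1), summed transcript counts, the replicate number as a block and samples left out. The GC correction (loess, span 0.3) was added with the data in view.

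The members and lists were chosen with earlier results of these data known. Text names all members; from each list every gene past the threshold, the 2 of smallest p and the highest by FPKM; at most 2 markers of highest CPM per cell type (other marker names were picked with their values known); the most correlated gene per member; and transcripts with at least 10% of a gene's counts in a sample, beside those whose groups did not overlap. Protein sequences were not used here. Figures were drawn with matplotlib 3.10.9.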

Additional observations from a re-analysis of the deposited data

How the results depend on the processing

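No member passed the threshold in any of the alternatives. Of all genes, 2 passed, beside 14 with DESeq2, 1 with library size alone, 1 with all genes that had a count, 0 in the 3 limma fits on FPKM (394 to 765 genes at an unadjusted p under 0.05), 1 with GC correction, 12 without the 2 samples that stand apart, and 0 to 5 with each sample left out. DESeq2 called 1 list gene, Bach2, and 400 of 70124 transcripts, and with each sample left out 0 to 1 transcripts passed. The sign of the log2 fold change held in all alternatives for Nkg7, Slamf7, Klrc1, Klrk1, Ncr1 and Klrb1c. It turned for Klrc2 without TCR+DMGV replicate 3 (-0.72; 1.52 without TCR+DMGV replicate 1), for Klrd1 without TCR alone replicate 3 (-0.10; 0.50 without TCR+DMGV replicate 1), and for Cd226 with log2(FPKM + 0.1) (0.00055), GC correction (0.12) and with single samples left out (from -0.22 without replicate 3 of TCR alone to 0.13 without replicate 1 of TCR+DMGV). The cause was not tested. The replicate block gave 0 genes past the threshold (340 at an unadjusted p under 0.05) and 0.016 for Cd226. Same-numbered samples had correlations of -0.15, 0.12 and -0.15 in their deviations from the group means. TCR alone replicate 3 correlated best with TCR+DMGV replicate 1 (0.31), the 2 samples that also stood apart on the first principal component. These deviations carry that split, so they cannot tell whether same-numbered samples share an animal or a preparation. Low counts limit the precision for Klrg1, Klrc2, Ncr1 and Klrb1c, which stayed at or below 52 per sample.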
